A study of Mus musculus with 6 samples.

Results

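Neurexins and their binding partners hold synapses together, and 9 such genes were followed here in the cerebellum of newborn mice whose mothers ate a diet with 2 or 20 mg/kg folic acid (FA). The members were Nrxn2 and Nrxn3 (neurexins), Nlgn1, Nlgn2 and Nlgn3 (neuroligins), Lrrtm1 and Lrrtm2 (leucine-rich repeat proteins), Cbln1 (cerebellin) and Cntnap2 (a neurexin-related protein of axons). They were chosen by name: every non-control probe that the scanner files name after one of them was taken, 22 probes of 55681 on the array, for 9 of the 34797 gene or region names it carries. All 9 genes had at least 1 probe. The pups were C57BL/6J mice at postnatal day 1 (P1). Their dams received a custom AIN-93G amino acid diet from the week before mating until birth, and the 2 doses were the only stated difference between the diets. Each of the 6 single-colour arrays carried RNA of 1 pool of 3 cerebella from pups of 1 sex, each pup from a different dam. Each sex had 1 pool at 2 mg and 2 pools at 20 mg, the repeat at 20 mg coming from a separate batch of pups. The titles name cerebellum, whereas one label of the same samples reads whole brain. All 6 granule cell and all 6 Purkinje cell markers were well above background on both 2 mg arrays, and so were all 8 forebrain markers.

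Neurexins sit in the presynaptic membrane and are made in long (alpha) and short (beta) forms from separate promoters of each gene. Neuroligins and LRRTM proteins face them in the postsynaptic membrane, Nlgn1 mainly at excitatory and Nlgn2 at inhibitory synapses. In the cerebellum, Cbln1 is secreted by granule cells and binds neurexins on their axons, at the synapses they form onto Purkinje cells. At P1 most granule cells have not yet been born, so much of this synapse formation lies ahead.

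Levels below are log2 signals after quantile normalization, and a dose difference is the level at 20 mg minus that at 2 mg in the same sex, also in log2. Each array is named by sex, dose and number. A probe is called well above background where the scanner software marks its signal so. A probe's level depends on its own binding strength, so levels are compared between arrays and not between probes. In bulk tissue, fewer cells that use a gene cannot be told apart from less RNA per cell.

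One array stood apart before any comparison. On female 20 mg array 2, 23.3% of probes were well above background against 51.1% to 71.9% on the other 5 arrays, and its median processed signal was 5.14 against 39 to 162. Its mean Spearman correlation with the others was 0.658, whereas theirs were 0.861 to 0.889. Of the 22 member probes, 11 were well above background on it, 22 on female 2 mg, female 20 mg array 1 and male 2 mg, and 21 on each male 20 mg array. The slides also followed the doses in part. Both 2 mg arrays and female 20 mg array 1 lay on 1 slide, female 20 mg array 2 and male 20 mg array 1 on a second slide scanned on an earlier day, and male 20 mg array 2 on a slide of its own. Markers of neighbouring tissue differed between the arrays too. The summed level of 6 choroid plexus markers was 12.52 on female 2 mg and 16.31 and 14.89 on the female 20 mg arrays, and 14.73, 15.54 and 15.47 on the male arrays in the same order. Much of this sum was Ttr, which read 11.21, 16.16 and 14.59 in females and 14.26, 15.31 and 15.30 in males. The median difference of the 6 markers from 2 mg was 2.51 and 2.31 on the female 20 mg arrays, and 0.38 and −0.33 on the male ones. The 8 forebrain markers summed to 12.67, 13.94 and 11.35 in females and to 10.75, 12.41 and 10.80 in males. The part of these markers, the slides and the dim array in the values below was not tested.

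Probes that lie in coding sequence are shown for Nrxn3 and Cntnap2, because their probes within a gene gave unlike dose differences and the 60 letters show what each one detects. Sequences are those of the array design, 5′ to 3′ on the plus strand of mouse build mm9. The first belongs to 1 transcript of Nrxn3 only, the other two of Nrxn3 to all 3 Nrxn3 transcripts that the design lists, and the last to Cntnap2.
Nrxn3 A_55_P2165088, chr12:91052021-91052080: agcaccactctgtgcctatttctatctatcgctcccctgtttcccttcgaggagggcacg
Nrxn3 A_55_P1963889, chr12:91407414-91407473: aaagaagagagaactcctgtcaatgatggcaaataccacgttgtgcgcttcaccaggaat
Nrxn3 A_55_P2054640, chr12:91522030-91522089: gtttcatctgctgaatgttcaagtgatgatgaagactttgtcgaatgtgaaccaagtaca
Cntnap2 A_52_P215750, chr6:46999241-46999300: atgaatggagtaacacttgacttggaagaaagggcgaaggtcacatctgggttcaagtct
Each has at least 1 reading frame without a stop codon. So does Nrxn3 A_55_P2054643 at the 3′ end of the gene, so an open frame over 60 bases does not by itself mark coding sequence. GC content over the 22 probes ran from 35% to 55%. Of the 22 probes, 4 shared a run of 16 or more bases with a probe named after another gene or region. Nrxn2 A_55_P1954061, Nrxn3 A_55_P2054640 and Nlgn3 A_55_P1960994 each shared one with 1 such probe. Nlgn3 A_55_P2335903 shared one with 14 such probes on its own strand and 12 on the opposite strand. Signal of this probe can therefore include other transcripts, and its values are given with that limit.

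No member probe passed a test of dose over the 6 arrays. In limma, fitted over 37257 probes with 4 groups of sex and dose, all 22 member probes were tested and 0 were called in females, in males, over both sexes or for the difference between the sexes (Benjamini-Hochberg adjusted p = 1 for each). The background was also 0% of probes called in each of these contrasts. No member reached an unadjusted p under 0.05 either, where 0.432% of all probes did in females, 0.199% in males, 0.387% over both sexes and 0.137% for the difference. These shares lie far below the 0.05 share of p-values expected where nothing differs, so the fit was conservative. A member under 0.05 was unlikely in advance, and the absence of one says little about dose. The smallest unadjusted p of a member was 0.08 (limma, an Nrxn2 probe in males). The fit had 2 residual degrees of freedom, and the SE of a member's difference within a sex was 0.89 to 2.15. The p-values rest on the spread between the 2 pools at 20 mg of each sex, not between pups. limma also draws each probe's spread toward that of probes of similar level (median SD of this prior 1.32). A member's SE therefore need not follow its own pools. The Cbln1 lead probe had an SD at 20 mg of 0.12 in females and 0.10 in males, but an SE of 0.95 within each sex. The arrays of each such pair lay on different slides scanned on different days, and the female pair included the dim array. The spread between pools therefore cannot be told apart from that of slide, scan day and array.

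The study's own rule takes a mean difference of at least 2.5-fold within a sex among probes that vary over the 6 arrays (chi-square p of at most 0.05), with no test. It kept 7 of the 22 member probes as varying, against 27.4% of all probes. In females 4 probes were lower at 20 mg (2 of Nrxn3 and 1 each of Nlgn1 and Cntnap2) and 0 were higher, against 10.3% of all probes lower and 8.65% higher. All 4 were not well above background on female 20 mg array 2, which carried most of each difference. In males 0 were lower and 1 was higher, a probe of Nrxn3, against 2.17% and 1.42% of all probes. None passed in both sexes (background 0.991% lower and 0.855% higher). All shares for this rule are over every probe on the array, in the fit or not, whereas all 22 member probes were in the fit. The median difference over the 22 probes was −0.51 in females and 0.13 in males, beside −0.21 and −0.04 over all probes in the fit. Under the shift of arrays to a common 75th percentile the medians were −0.10 in females and −0.06 in males. Over all probes on the array they were then 1.04 and 0, beside 0 in both sexes with quantile normalization. The female median of the members was −1.07 without female 20 mg array 1 and −0.48 without female 20 mg array 2.

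**Figure D1:**
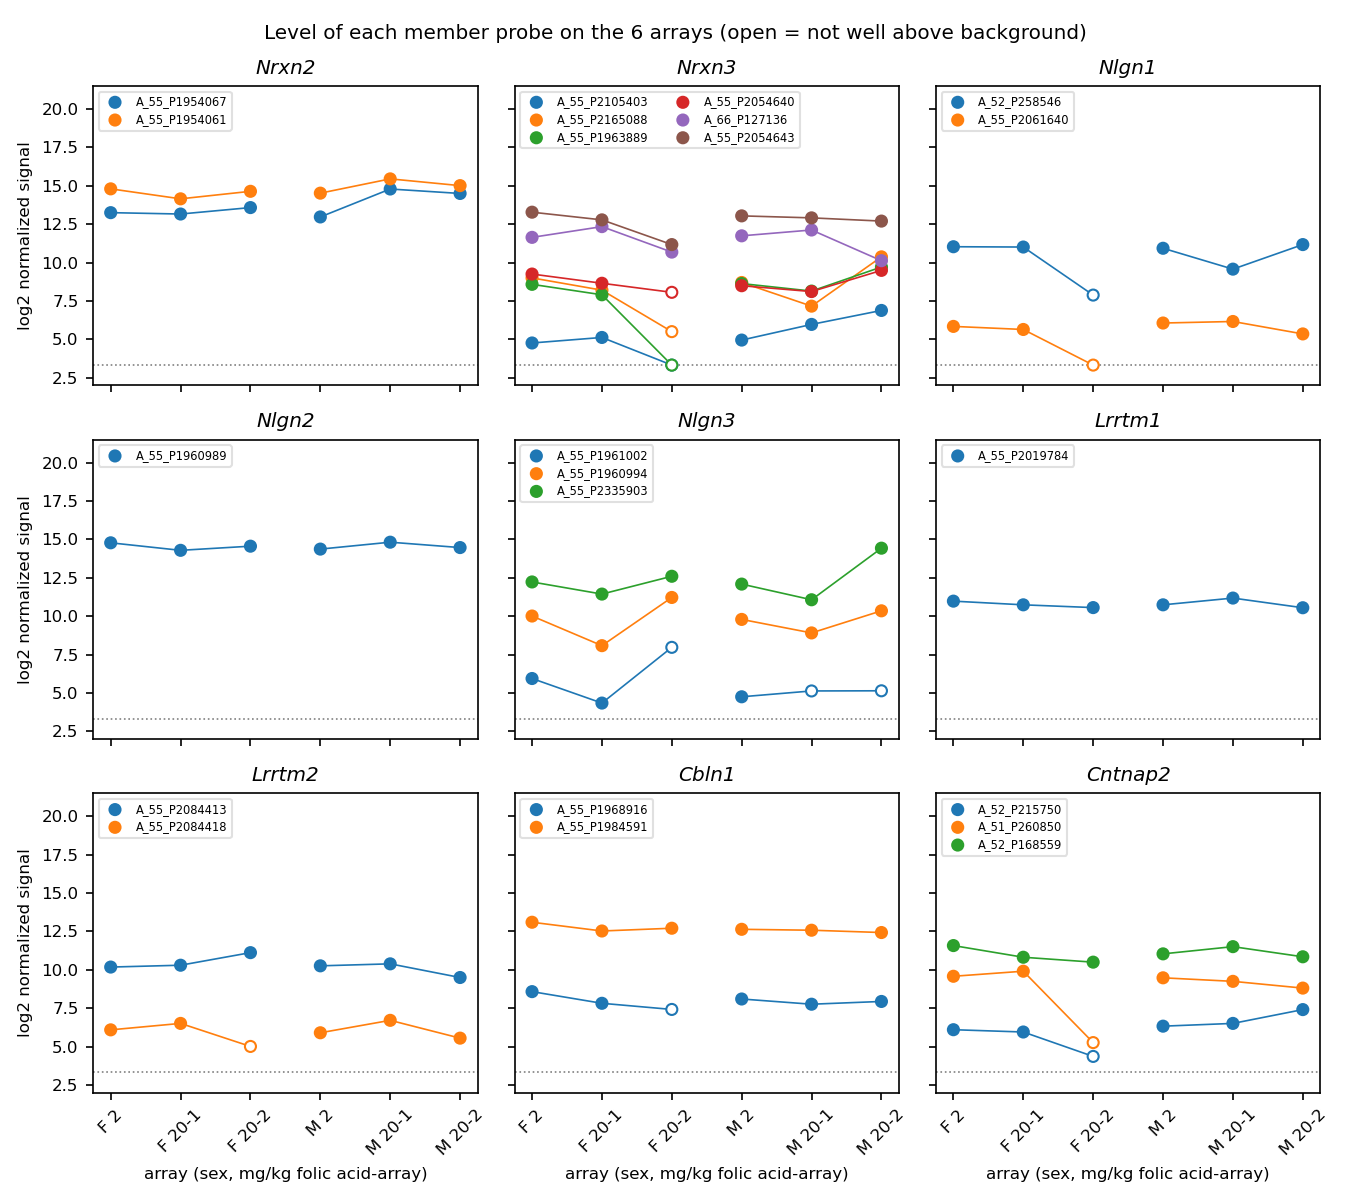
Log2 normalized signal (y axis) of every member probe on the 6 arrays (x axis: F female, M male, 2 or 20 mg/kg folic acid, then array number), with probes of a gene in gene order on their chromosome, open circles for probes not well above background and a dotted line at the floor of 10. Nlgn2 spanned 14.29 to 14.82 over the 6 arrays, and 2 Nrxn3 probes and 1 Nlgn1 probe were at the floor on female 20 mg array 2.

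Nrxn2 had 2 probes on chromosome 19 that were well above background on all arrays. Probe A_55_P1954067 (start 6532125) read 13.25 on female 2 mg, 13.16 and 13.58 on female 20 mg, 12.97 on male 2 mg, and 14.79 and 14.50 on male 20 mg. Both male 20 mg arrays were thus above every other array, while the female arrays overlapped. The male difference was 1.68 (3.20-fold), from 12.97 to 14.65 ± 0.21 (SD, n = 2), with an unadjusted p of 0.08 and an adjusted p of 1 in limma (SE 0.91), and the female difference was 0.12. The probe did not pass the variation filter, so the fold rule did not count it. Before normalization its processed signal was 20000 on male 2 mg and 28700 and 12100 on the male 20 mg arrays, whose median signals were 40.9 and 39 against 119. When arrays were shifted to a common 75th percentile instead, the male differences were 1.33 and 1.26 and the second female one was 1.21. The lead probe of Nrxn2, A_55_P1954061 (start 6533156), the one with the highest mean level, read 14.80, 14.15 and 14.64 in females and 14.52, 15.45 and 15.01 in males, in the same order of dose and array. It was lower at 20 mg on both female arrays (−0.65 and −0.16) and higher on both male arrays (0.93 and 0.49). The difference between the sexes, −1.12 (SE 1.27), was not past the threshold (limma unadjusted p = 0.388, adjusted p = 1). Under the 75th percentile shift female 20 mg array 2 was higher at this lead probe instead (0.79), so the directions were no longer opposite. The lead probe also shares a run of at least 16 bases with a probe of another gene, Gm5065.

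Nrxn3 was covered by 6 probes along about 1540 kb of chromosome 12, and these did not differ alike with dose. The most 5′ probe, A_55_P2105403, which the design assigns to 1 transcript only, was dim. It read 4.76, 5.12 and 3.32 in females and 4.95, 5.97 and 6.88 in males, and was the member probe that the fold rule counted as higher in males (difference 1.47; 20 mg mean 6.43 ± 0.64, SD, n = 2). Its male differences under the 75th percentile shift were 0.53 and 2.38, and its limma p in males was 0.403 (adjusted p = 1).

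The next probe, A_55_P2165088, whose coding letters are printed above and which is likewise assigned to 1 transcript, read 9.0, 8.20 and 5.5 in females and 8.70, 7.16 and 10.37 in males. The male 20 mg arrays lay on opposite sides of the 2 mg array (−1.54 and 1.67). A_55_P1963889, shared by all 3 transcripts, read 8.58, 7.90 and 3.32 in females and 8.63, 8.14 and 9.71 in males. The fold rule counted both as lower in females (differences of −2.15 and −2.97), but female 20 mg array 1 alone gave −0.80 and −0.68. A_55_P2054640, also coding, read 9.25, 8.65 and 8.06 in females and 8.49, 8.11 and 9.49 in males.

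The remaining 2 probes lie at the 3′ end and were well above background on all arrays. A_66_P127136 read 11.64, 12.34 and 10.68 in females and 11.74, 12.12 and 10.12 in males, lower than at 2 mg on the second 20 mg array of each sex only. The lead probe, A_55_P2054643, read 13.28, 12.78 and 11.17 in females and 13.04, 12.91 and 12.70 in males, so that every 20 mg array lay below both 2 mg arrays. Such a separation occurred in 2 of the 22 member probes and in 4.58% of all probes in the fit, and 0 members (3.74% of all) had every 20 mg array above. Without female 20 mg array 2, 3 members were so separated below (7.02% of all) and 1 above (8.03%). The dose difference over both sexes was −0.77 (SE 0.71; limma unadjusted p = 0.288, adjusted p = 1), and it stayed below 0 in all 18 alternative analyses in which it was recomputed, from −1.32 to −0.01. Alternatives without the 2 mg array of a sex give the difference of the other sex alone. On male 20 mg array 2, the 4 probes nearer the 5′ end were higher than at 2 mg (1.01 to 1.93) and the 2 at the 3′ end lower (−1.63 and −0.34), whereas on male 20 mg array 1 no such order was seen.

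**Figure D2:**
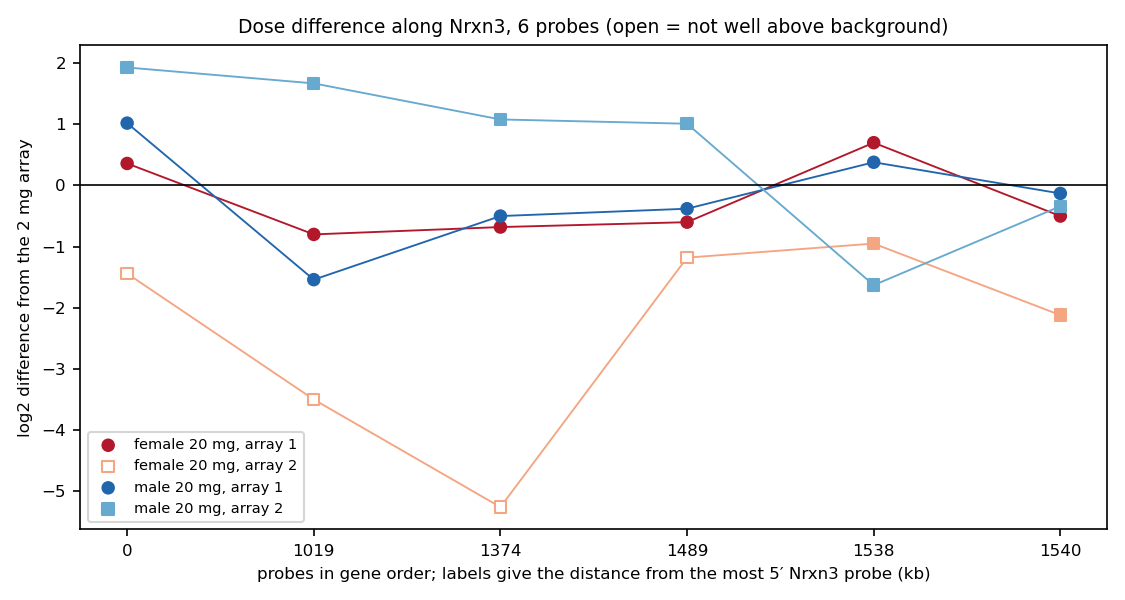
Log2 dose difference (y axis) of the 6 Nrxn3 probes in gene order (x axis, labelled with the distance in kb from the most 5′ probe) on each 20 mg array against the 2 mg array of its sex, with open symbols for probes not well above background on that array. Female 20 mg array 2 lay below 0 at all 6 probes, and male 20 mg array 2 changed sign between the probes at 1489 and 1538 kb.

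Among the neuroligins, Nlgn1, Nlgn2 and Nlgn3 gave 3 unlike patterns. The lead probe of Nlgn1 on chromosome 3, A_52_P258546, read 11.03, 11.01 and 7.88 in females and 10.93, 9.57 and 11.17 in males. Each sex thus had 1 array at 20 mg close to the 2 mg array (−0.02 and 0.24) and 1 well below it (−3.15 and −1.36). The fold rule counted it as lower in females (difference −1.59), and it was not well above background on the low female array. The second Nlgn1 probe, A_55_P2061640, read 5.84, 5.64 and 3.32 in females and 6.06, 6.16 and 5.35 in males. It was likewise not well above background on that array, where it was at the floor.

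Nlgn2, on chromosome 11, had the narrowest range of the 22 probes, 14.29 to 14.82. Its single probe read 14.78, 14.29 and 14.56 in females and 14.37, 14.82 and 14.47 in males. The female arrays at 20 mg were lower by a little (−0.49 and −0.23) and the male ones higher (0.45 and 0.10), with a difference between the sexes of −0.64 (SE 1.26; limma unadjusted p = 0.619, adjusted p = 1). Under the 75th percentile shift these directions were lost, with 0.72 on female 20 mg array 2 and −0.09 and −0.22 on the male arrays.

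Nlgn3, on the X chromosome, had opposite differences on the female 20 mg arrays at all 3 probes. A_55_P1960994 read 10.01, 8.08 and 11.22 in females and 9.79, 8.91 and 10.35 in males, and was well above background throughout. The female differences were −1.94 and 1.20, so their mean of −0.37 described neither array. The lead probe, A_55_P2335903, which shares bases with probes of other genes, read 12.23, 11.44 and 12.60 in females and 12.09, 11.07 and 14.43 in males. The remaining probe, A_55_P1961002, read 5.94, 4.34 and 7.97 in females and 4.75, 5.13 and 5.14 in males, and was not well above background on female 20 mg array 2 or on either male 20 mg array. All 3 probes were below the 2 mg level on female 20 mg array 1 (−1.60, −1.94 and −0.78), the array that shared its slide with both 2 mg arrays. In the authors' value table this dim probe was instead lower on both female arrays (−1.25 and −1.39).

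When the arrays of that slide were normalized alone and female 20 mg array 1 was set against both 2 mg arrays, 1 member probe was called, Nlgn3 A_55_P1960994 (−1.87, limma adjusted p = 0.0108), a probe that shares a run of at least 16 bases with 1 probe of another gene, Camk2n2. This fit of 3 arrays has 1 residual degree of freedom, takes the 2 sexes as replicates and called 984 of 36717 probes in all. On all 6 arrays the same probe had a difference over both sexes of −0.27 (limma adjusted p = 1).

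Of the LRRTM genes, Lrrtm1 on chromosome 6 read 10.98, 10.74 and 10.56 in females and 10.74, 11.18 and 10.55 in males, a span of less than 1 log2 unit with overlapping doses. The lead probe of Lrrtm2, A_55_P2084413, read 10.18, 10.30 and 11.12 in females and 10.26, 10.39 and 9.50 in males. The second 20 mg arrays of the sexes thus lay on opposite sides (0.93 and −0.76), and the first ones near the 2 mg level (0.11 and 0.13). The dimmer A_55_P2084418 read 6.09, 6.51 and 5.01 in females and 5.90, 6.71 and 5.55 in males.

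With quantile normalization Cbln1, on chromosome 8, was lower at 20 mg on every array and both probes, by small amounts that did not pass the test. Lower on all 4 arrays at 20 mg were 3 of the 22 member probes (13.6%) and 6.68% of all probes in the fit. The lead probe, A_55_P1984591, read 13.10, 12.53 and 12.71 in females and 12.64, 12.58 and 12.43 in males. All 4 arrays at 20 mg were below the 2 mg array of their sex, by −0.57 and −0.40 in females (mean 12.62 ± 0.12, SD, n = 2) and by −0.07 and −0.21 in males (12.50 ± 0.10, SD, n = 2). Female 20 mg array 2 at 12.71 was above the male 2 mg array, so the doses overlapped across the sexes. The second probe, A_55_P1968916, read 8.58, 7.82 and 7.42 in females and 8.10, 7.76 and 7.94 in males, with every 20 mg array below both 2 mg arrays, but was not well above background on female 20 mg array 2. The female 2 mg array was also above the male one (0.46 and 0.47 on the 2 probes), which for the lead probe is about as large as the female dose difference of −0.49. Over both sexes the lead probe gave −0.31 (SE 0.67; limma unadjusted p = 0.649, adjusted p = 1), with −0.49 to −0.14 over 18 alternatives. The ends of this range leave out the 2 mg array of 1 sex and so give the other sex alone. Under the 75th percentile shift female 20 mg array 2 was higher instead (0.33). Male 20 mg array 1 did not differ from 2 mg (0) with normexp background correction, with uncorrected mean signals or in the authors' value table. Over 9452 probes of named genes well above background on all arrays, the levels most like those of this Cbln1 probe over the 6 arrays were of Slc8a2 (Pearson r = 0.941), Serpinb6a (r = 0.926) and Magel2 (r = 0.92), which share its arrays and their normalization.

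Cntnap2, whose protein gathers potassium channels beside the nodes of myelinated axons, had 3 probes on chromosome 6. The coding probe A_52_P215750 printed above read 6.10, 5.95 and 4.36 in females and 6.33, 6.51 and 7.41 in males, lower on both female and higher on both male 20 mg arrays. The difference between the sexes was −1.57 (limma unadjusted p = 0.605, adjusted p = 1), and the probe was not well above background on female 20 mg array 2. Under the 75th percentile shift these directions were lost, with −0.32 and 0.92 in females and −0.23 and 1.34 in males. A_51_P260850 read 9.58, 9.91 and 5.26 in females and 9.48, 9.25 and 8.81 in males. The fold rule counted it as lower in females (difference −2.0), although female 20 mg array 1 was higher by 0.33, and its processed signal on female 20 mg array 2 was 5.01 against 1730 on female 2 mg. The lead probe, A_52_P168559, read 11.58, 10.82 and 10.50 in females and 11.04, 11.51 and 10.85 in males, with a female difference of −0.91 and a male one of 0.14 (limma adjusted p = 1 for both).

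**Figure D3:**
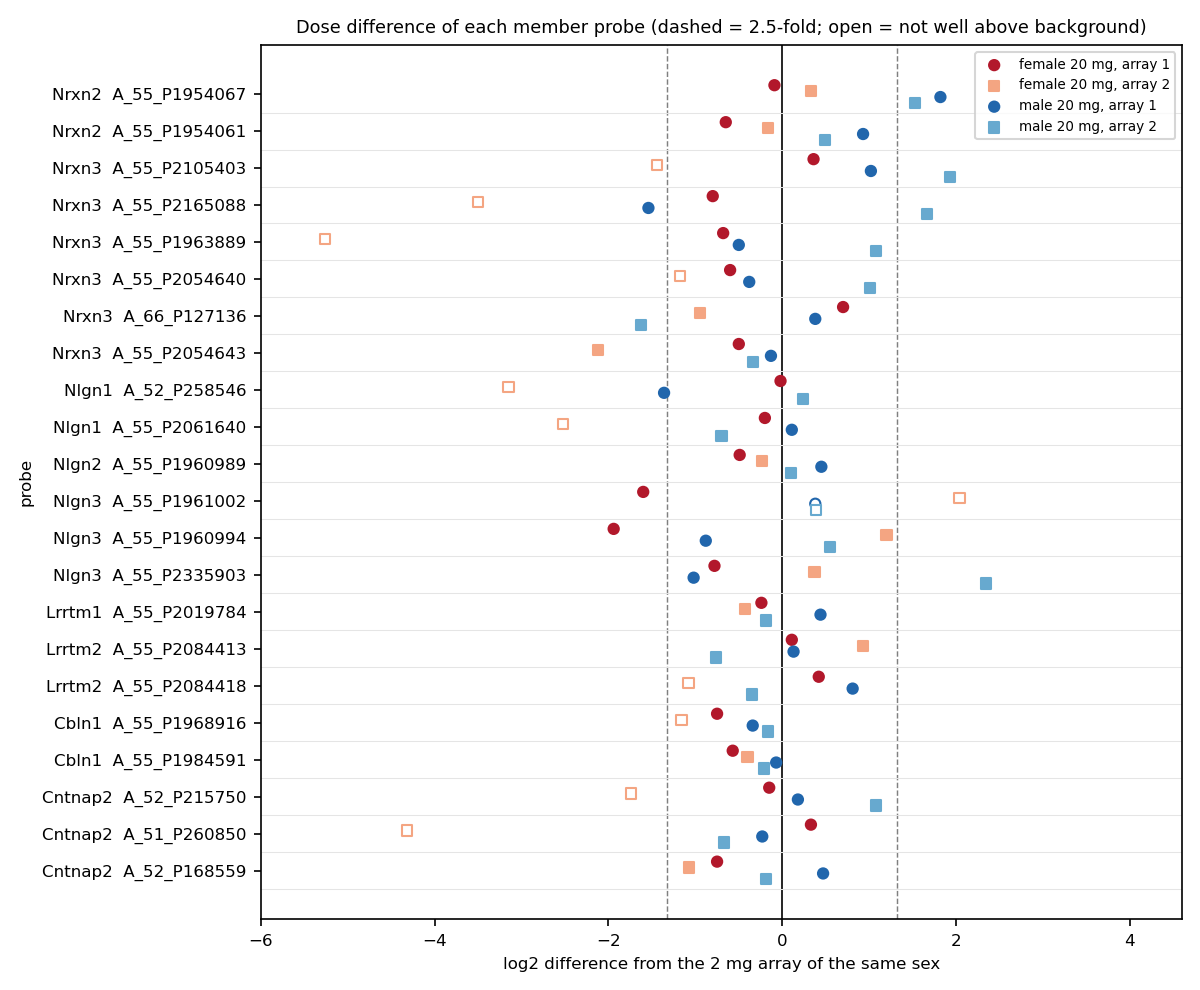
Log2 dose difference (x axis) of each of the 22 probes (y axis) on the 4 arrays at 20 mg, each against the 2 mg array of its sex, with circles for array 1, squares for array 2, open symbols for probes not well above background on that array and dashed lines at 2.5-fold. The points beyond −2.5 are open squares of female 20 mg array 2.

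Among the 11 member probes well above background on all arrays, 1 was at least 2.5-fold lower on female 20 mg array 2 and 0 were higher, with a median of −0.23. Of all 12430 probes so measured, 11.6% were lower there and 24.8% higher. Probes with a low signal on that array do not pass this filter. On female 20 mg array 1 the median of the same 11 was −0.50, and 1 was at least 2.5-fold lower and 0 higher (background 2.28% and 0.732%). At 2 mg the level in females minus that in males ranged from −0.23 to 1.19, none past 2.5-fold, and its median size was 0.23 beside 0.22 over all probes in the fit.

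The wider pathway was read from 5 lists of 86 other genes, of which 85 were on the array, 82 had a lead probe in the fit and 43 a lead probe well above background on all arrays. limma called 0 of them in any contrast, and 0 had an unadjusted p under 0.05 over both sexes (0.387% of all probes in the fit). By the fold rule 12 lead probes were lower and 1 was higher in females, and 0 passed in males, so none passed in both sexes. Over all probes on the array, also those outside the fit, the shares were 10.3% lower and 8.65% higher in females, and 2.17% and 1.42% in males. Of the 12, 11 were not well above background on female 20 mg array 2. The median lead probe difference over the lists was −0.30 in females and −0.03 in males, beside −0.21 and −0.04 over all probes in the fit.

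Of 21 neurexin ligands and receptors, 5 were lower in females by the fold rule and 0 higher, beside 10.3% and 8.65% of all probes. Cbln2, a relative of Cbln1, gave 0.90 over both sexes (SE 0.83, limma adjusted p = 1). Its levels were 10.80, 10.62 and 12.74 in females and 10.53, 10.80 and 12.10 in males. The second 20 mg array of each sex thus carried the difference. The Cbln2 probe shares a run of at least 16 bases with Nlgn3 A_55_P2335903 on the opposite strand, and the effect of this on its signal was not tested. Nxph3, a secreted ligand of alpha neurexins, gave 0.42 and Lphn1, a latrophilin, −0.41 over both sexes. Of 22 intracellular scaffold genes, 2 were lower in females, near the 10.3% of all probes. Dlgap3, a postsynaptic scaffold, read 13.31, 12.63 and 14.90 in females and 12.80, 14.06 and 14.15 in males (0.88 over both sexes, SE 0.71, limma adjusted p = 1), so both male arrays but only 1 female array at 20 mg were higher. Shank1, another postsynaptic scaffold, gave 0.62.

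Of 12 Cntnap2 partners and relatives, 2 were lower in females, beside 10.3% of all probes. Adam22 gave −0.66, Cntn1 −0.27 and Epb4.1l3 −0.10 over both sexes. Of 10 genes listed as neurexin splicing regulators, 9 were on the array (A2bp1, not found there, is an older symbol of Rbfox1) and none passed the fold rule in either sex. Khdrbs3, a splicing factor of the STAR family, gave −0.51, Nova2 −0.17 and Ptbp1 0.12. Of 21 other synaptogenic adhesion genes, 3 were lower and 1 was higher in females, beside 10.3% and 8.65% of all probes. Ptprf, a receptor phosphatase, read 12.44, 11.82 and 9.66 in females and 12.21, 11.64 and 12.09 in males (−1.02 over both sexes, SE 0.79, limma adjusted p = 1). Cadm2 gave −0.75 and Ntrk3 −0.72.

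**Figure D4:**
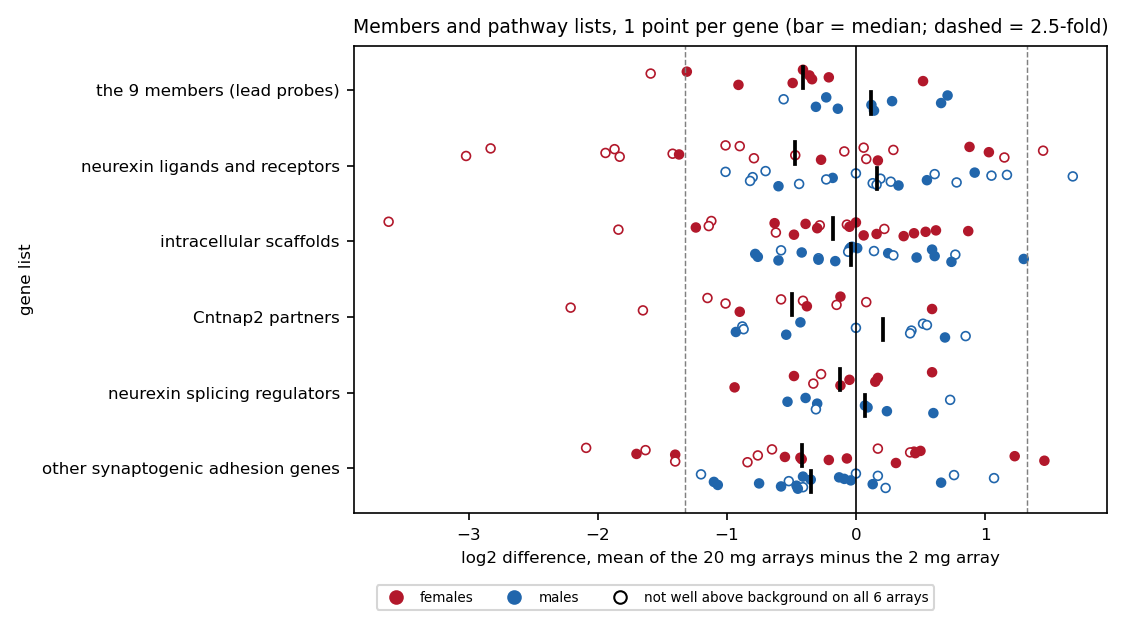
Log2 dose difference (x axis, mean of the 20 mg arrays minus the 2 mg array of the sex) of the lead probe of each member and of each gene of the 5 lists on the array (y axis), females in red and males in blue, with open points for probes not well above background on all 6 arrays, a bar at the median and dashed lines at 2.5-fold. Of the 12 list genes lower in females by the fold rule, 11 are open points, and the single male point past 2.5-fold did not pass the variation filter.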

How the data were processed

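RNA of 6 pools of P1 cerebellum was hybridised by the authors to single-colour Agilent 60-mer mouse arrays, and the deposited scanner files, written with Agilent Feature Extraction 10.7.3.1, hold processed signal intensity, background-corrected by that software (probe positions in mouse build mm9). The authors' deposited value table holds log2 values, quantile normalized with a minimum of 10 per the methods, and served as an alternative only. Here outlier spots were left out, spots of a probe were averaged, and log2 processed signals were quantile normalized over the 6 arrays with a floor of 10. limma 3.58.1 in R 4.3.3 was fitted to the 37257 probes that the software marked well above background on 2 or more arrays, with 4 groups of sex and dose, trended empirical Bayes and Benjamini-Hochberg adjustment at 0.05. The lone 2 mg array of a sex was assumed to vary like the 20 mg arrays. The fold rule of the study's methods (variation filter, 2.5-fold within a sex) was run beside it. The methods were tested on simulated data with equal noise on every array. These data held no dim array and no slide effect, so that test does not bear on either.

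The members, lists and rules were chosen with earlier results of these data known. Every member is named with every probe. A lead probe is the one well above background on most arrays, ties going to the highest mean level. Of each list, genes called by limma or past the fold rule in both sexes were to be named, and otherwise the 3 largest differences over both sexes among lead probes well above background on all arrays (1 gene that this rule names is not reported here). All arrays were used, 0 columns belonged to other samples, and their number limits the precision. Alternatives covered normalization, floor, background correction, the value table, left-out arrays, slide, scan day, filters and model. Sequences were read from the scanner files.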

Additional observations from a re-analysis of the deposited data

Results flagged for a closer look

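At 3 of the 22 member probes both female 20 mg arrays lay on 1 side of the 2 mg array and both male ones on the other (13.6%; background 9% of all probes in the fit). These were Nrxn2 A_55_P1954061, with a female minus male dose difference of −1.12, Nlgn2 A_55_P1960989 with −0.64 and Cntnap2 A_52_P215750 with −1.57 in log2. The difference itself was tested with the interaction term of limma and was not past the threshold for any of them (unadjusted p = 0.388, 0.619 and 0.605, adjusted p = 1). Under the 75th percentile shift the opposite signs were lost at all 3 probes. The female differences were then −0.86 and 0.79 at Nrxn2, −0.67 and 0.72 at Nlgn2, and −0.32 and 0.92 at Cntnap2. The Nrxn2 probe shares a run of at least 16 bases with a probe of another gene, Gm5065. The other Nrxn2 probe, A_55_P1954067, gave −0.09 and 0.33 in females with quantile normalization.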

How the results depend on the processing

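Over all alternatives limma called 0 member probes in females, in males and for the interaction, and 0 over both sexes (0 to 0 without any 1 array), except for 1 on slide 1 only. The count by the fold rule was less stable. In females it was 4, and became 0 with the 75th percentile shift, 2 with normexp, 2 with uncorrected mean signals, 2 on slide 1 only and 1 to 5 without 1 array (1 without female 20 mg array 2). In males it was 1, and became 0 with the 75th percentile shift, 0 with the floor set first, 0 with the authors' value table, 2 with no variation filter and 1 to 3 without 1 array (2 higher without female 20 mg array 2, 3 higher without male 20 mg array 1, 2 lower without male 20 mg array 2). The 75th percentile shift moved the median female difference of all probes to 1.04, and all probes past the fold rule in females from 5737 lower and 4815 higher to 354 lower and 1723 higher. In males they went from 1208 lower and 790 higher to 275 lower and 426 higher.

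The lead probe differences over both sexes kept their sign in every alternative for Nrxn3 and Cbln1, and each of the others changed sign at least once, all at an adjusted p above 0.1. Nrxn2 (0.15) became −0.51 on slide 1 only, −0.08 with scan day as a block, −0.38 with slide as a block in the additive model and −0.41 without male 2 mg. Nlgn1 (−1.07) became 0.03, 0.11 and 0.43 under the first 3 of these. Nlgn2 (−0.04) became 0.01 with normexp and with uncorrected signals, 0 in the value table, and, leaving out 1 array, 0.03, 0.04 and 0.28 (−0.13 to 0.04 over the 20 mg arrays, 0.28 without female 2 mg). Nlgn3 (0.23) became −0.70 on slide 1 only, −1.13 with slide as a block, and −0.05 without female 20 mg array 2, −0.62 without male 20 mg array 2 and −0.21 without male 2 mg (−0.62 to 1.11 over the 20 mg arrays). Lrrtm1 (−0.11) became 0.05 without male 20 mg array 2 (−0.26 to 0.05) and 0.13 without female 2 mg. Lrrtm2 (0.10) became −0.02 in the value table, −0.32 with scan day and −0.09 with slide as a block, and −0.10, −0.12 and −0.31 leaving out female 20 mg array 2, male 20 mg array 1 or female 2 mg (−0.12 to 0.33 over the 20 mg arrays). Cntnap2 (−0.39) became 0.14 without female 2 mg. Without the only 2 mg array of a sex no dose difference exists for that sex, so these values are the difference of the other sex alone. The cause of the other changes was not tested.

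A random slide block could not be fitted. No paired analysis was possible because each sex has 1 array at 2 mg, so the doses share fewer than 2 replicate numbers. Signal over background limits the female values: 11 of 22 member probes were not well above background on female 20 mg array 2. Each pool of pups gave 1 array, so variation between pups was not measured.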

Other observations

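One gene of the lists that the naming rule left out was singled out after its values were seen. Nxph1, a neurexophilin that binds alpha neurexins, read 6.98 on female 2 mg, 8.03 and 8.83 on the female 20 mg arrays, 7.02 on male 2 mg, and 8.61 and 8.78 on the male 20 mg arrays. Every 20 mg array was thus above both 2 mg arrays, a separation seen in 3.74% of all probes in the fit. The probe was not well above background on female 20 mg array 2 and did not pass the variation filter. The difference over both sexes was 1.56 (SE 1.3; limma unadjusted p = 0.243, adjusted p = 1). Under the 75th percentile shift the 4 arrays at 20 mg differed from the 2 mg array of their sex by 1.11, 1.96, 1.63 and 1.82, and without female 20 mg array 2 the other 3 did so by 1.12, 1.68 and 1.85.

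Lrrtm4, a relative of the LRRTM members, was lower on all 4 arrays at 20 mg, with 9.19, 8.47 and 8.09 in females and 9.09, 7.73 and 8.43 in males (−0.96 over both sexes, SE 1.18, limma adjusted p = 1), and was likewise chosen after its values were seen. The same direction on all 4 arrays was seen in 6.68% of all probes in the fit, and the probe was well above background on 5 of the 6 arrays.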
